A study of Arabidopsis thaliana and Hordeum vulgare and Setaria italica with 13 samples.

Results

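The tRNA pools of sorghum (Sorghum bicolor) and maize (Zea mays), 2 related cereals of the same grass tribe, were set against each other over all 52 anticodon families of the tRNA-seq table. A family is the set of tRNAs that share an anticodon, and its name joins the amino acid to that anticodon with T in place of U, so that HisGTG is the histidine tRNA with anticodon GTG. Both groups were seedlings aged 10 days, raised in soil at 23 ºC under 16 h of light and 8 h of darkness, with 1 library each, out of 13 libraries in the series. The series profiled tRNAs in 7 plant species by tRNA-seq and in 5 of them by YAMAT-seq, which selects full-length tRNAs through their CCA end. Sorghum was not among the 5. The sources used here do not name cultivars, the organs sampled or the number of plants pooled. No mutant, treatment or transgene was part of either group. All 52 families were compared, and none was left out. Of these, 43 were above 0 in sorghum and 47 in maize, 40 were above 0 in both, 7 were listed at 0 in sorghum alone, 3 in maize alone, and 2 in both.

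A value was the percent of the total tRNA abundance of its library. The listed rows added up to 98.0% in sorghum and 99.8% in maize. The depth behind the percentages is unknown, so no share carries an interval. The smallest value above 0 was 0.0253% in sorghum and 0.00837% in maize, and all 43 and 47 values above 0 were whole multiples of it within a tolerance of 1e-06, so that sorghum shares were read on a coarser grid. With 1 library per species no difference could be set against a spread between replicates, and no test was possible. A difference was therefore described by its size, as the log2 ratio of sorghum over maize on the scale of percent + 0.01, and called where it passed 2-fold, which is a limit of size and not of significance. In seedlings, fewer cells of a type and less RNA per cell cannot be told apart. Only tRNA rows were measured, so the tissue label could not be checked against marker genes.

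A tRNA carries its amino acid to the ribosome and reads the codon through its anticodon, and several anticodons, called isoacceptors, can serve the same amino acid. A plant cell makes tRNAs from its nuclear, plastid and mitochondrial genomes, and in green seedlings plastid tRNAs serve the synthesis of the photosynthetic proteins that the plastid encodes. The plastid set is small and uses few anticodons per amino acid, while the nuclear set is larger. A row of the table sums every tRNA with its anticodon, whatever genome it comes from. Values of the same families in the tRNA-seq libraries of foxtail millet (Setaria italica), which belongs to the same subfamily as sorghum and maize, and of barley (Hordeum vulgare) and wheat (Triticum aestivum) are given for context.

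For maize, YAMAT-seq lists full sequences, so that tRNAs of some of the compared families can be shown. Of the 29 named families, 15 had listed maize reads and 14 had none. The 8 named families with listed maize reads and the largest differences in percentage points are given by their most read maize sequence, in DNA letters from the 5′ end to the CCA end, with the anticodon in capitals.
ThrTGT: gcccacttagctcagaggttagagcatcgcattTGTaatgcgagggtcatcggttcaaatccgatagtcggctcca
AsnGTT: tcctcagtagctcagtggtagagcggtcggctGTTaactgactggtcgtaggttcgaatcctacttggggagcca
GlnTTG: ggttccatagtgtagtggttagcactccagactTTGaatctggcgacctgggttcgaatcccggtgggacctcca
AspGTC: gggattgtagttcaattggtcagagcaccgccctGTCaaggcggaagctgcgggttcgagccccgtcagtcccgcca
GluCTC: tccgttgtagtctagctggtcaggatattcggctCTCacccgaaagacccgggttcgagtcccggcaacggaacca
LysCTT: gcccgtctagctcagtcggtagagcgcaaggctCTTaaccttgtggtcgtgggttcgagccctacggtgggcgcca
ArgTCT: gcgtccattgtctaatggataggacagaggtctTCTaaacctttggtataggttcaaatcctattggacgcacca
MetCAT: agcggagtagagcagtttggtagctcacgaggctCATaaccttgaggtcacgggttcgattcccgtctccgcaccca

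By edit distance to the Arabidopsis thaliana tRNAs with an exact place in that plant's genome, the maize sequences differed in which genome held their nearest match. ThrTGT stood 5 edits from a plastid tRNA and 23 from any nuclear one, ArgTCT stood 1 and 27 edits away, and AspGTC 0 and 23, with a mitochondrial tRNA at 1 edit from AspGTC. MetCAT stood 8 edits from a plastid tRNA and 25 from a nuclear one. AsnGTT lay 1 edit from a plastid tRNA and 2 from a mitochondrial one, against 19 from a nuclear one. GluCTC stood 3 edits from a nuclear tRNA and 28 from a plastid one, LysCTT 2 and 21, and GlnTTG 8 and 28, so that these were nearest to nuclear tRNAs. The YAMAT-seq reads behind these families in maize numbered 244 for ThrTGT, 3871 for AsnGTT, 487 for GlnTTG, 795245 for AspGTC, 15417 for GluCTC, 6 for LysCTT, 81291 for ArgTCT and 47906 for MetCAT, of 19833183 in all. GlyGCC alone held 95.1% of the maize YAMAT-seq reads, against 2.82% of the maize tRNA-seq library, so the 2 methods differed widely in shares. The sources used here do not say which compartment the tRNAs in the tRNA-seq rows came from. A maize sequence therefore shows what a tRNA of the row looks like and not which one was counted in either species.

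SerGGA, SerGCT, HisGTG and SerCGA had no listed maize YAMAT-seq reads, and their most read A. thaliana sequences are shown in their place, because these families hold the largest differences of all or, for SerCGA, the largest difference among serine tRNAs in the other direction. These 4 were added after their values were seen.
SerGGA: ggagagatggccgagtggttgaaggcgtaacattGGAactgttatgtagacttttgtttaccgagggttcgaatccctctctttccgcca
SerGCT: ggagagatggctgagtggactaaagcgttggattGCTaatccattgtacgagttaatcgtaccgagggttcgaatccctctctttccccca
HisGTG: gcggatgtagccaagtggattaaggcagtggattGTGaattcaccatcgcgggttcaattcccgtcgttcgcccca
SerCGA: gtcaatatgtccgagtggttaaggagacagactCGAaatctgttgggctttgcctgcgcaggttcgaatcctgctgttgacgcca

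In the A. thaliana build TAIR10.1 the SerGGA sequence matched bases 44827 to 44913 of the plastid genome, plus strand, within the tRNA gene ArthCt125. SerGCT matched the minus strand of the plastid genome at 7785 to 7872, where ArthCt091 is annotated on the opposite strand. HisGTG matched the plastid genome at 4 to 76 on the minus strand, in ArthCt088. SerCGA matched chromosome 5 at 23644711 to 23644792 of the plus strand, within the nuclear tRNA gene AT5G58495. The SerGGA and SerGCT sequences shared their 11 bases at the 5′ end, and their last 32 bases with at most 1 mismatch. The sources used here do not state how reads that fit both were counted.

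Sorghum and maize seedlings differed over most of the pool. Sorghum was led by HisGTG at 17.8%, ThrTGT at 16.8% and AsnGTT at 13.0%, while maize was led by SerGGA at 25.8% and SerGCT at 25.1%. Of the 52 families, 38 (73.1%) differed by more than 2-fold, 24 (46.2%) higher in sorghum and 14 (26.9%) lower. Of the 14, AlaTGC, CysACA and LysTTT were listed at 0 in sorghum and were under its smallest value above 0 in maize, so their calls cannot be told apart from the coarser sorghum grid. Of the 24, AlaAGC was listed at 0 in maize and stood at the smallest sorghum value above 0, so its call rests on the lowest step of that grid. The same count over families above 0 in both was 21 higher and 8 lower. Past 4-fold were 23 families (44.2%), 13 (25%) higher in sorghum and 10 (19.2%) lower. Of the 38, 23 reached 1% in at least 1 of the species, and 4 stayed under 0.1% in both.

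Shares of a library add up to a fixed total, so a large share of some families leaves less to the others. SerGGA and SerGCT together took 3.07% in sorghum and 51.0% in maize, which left 95.0% in sorghum and 48.8% in maize to the other families. The median log2 ratio was 0.61 over all 52 families and 1.32 over the 42 with a mean share of at least 0.1%. Relative to the median of 1.32, 12 families were higher in sorghum past 2-fold and 24 lower, and with serine left out and both columns brought to 100% the counts were 15 and 15. The 24 include ProCGG and IleGAT, which were listed at 0 in both species and fell below the median by the centring alone. The direction of the split thus depended on the scaling. Among the 28 named families past 2-fold, 6 higher and 8 lower kept their side of the 2-fold limit under every scaling, pseudocount and filter that retained them, the 4-fold limit aside. The 6 are HisGTG, ThrTGT, AsnGTT, SerCGA, LysCTT and ThrCGT, and the 8 are SerGGA, SerGCT, GlnTTG, AspGTC, GluTTC, TyrGTA, MetCAT and GlyGCC.

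**Figure D1:**
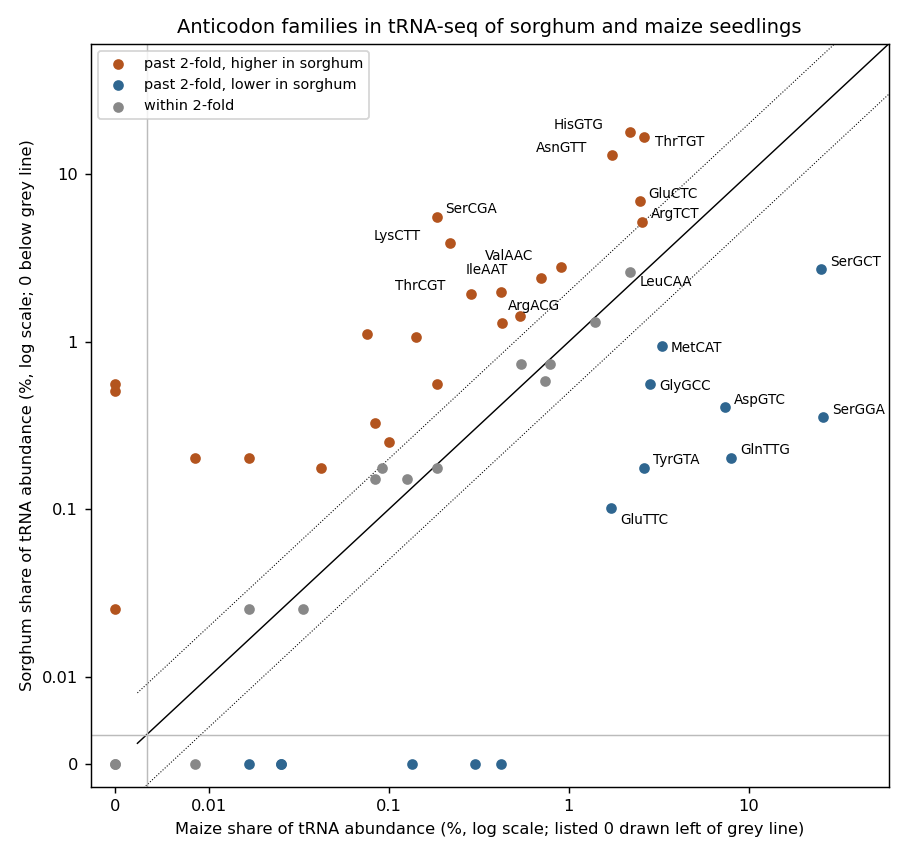
Share of tRNA abundance of the 52 anticodon families in sorghum (vertical) and maize (horizontal), in percent on log axes, with values listed at 0 drawn beyond the grey lines. The solid line marks equal shares and the dotted lines 2-fold differences, and orange points mark the 24 families called higher and blue points the 14 called lower in sorghum (some points overlap), with HisGTG, ThrTGT and AsnGTT at the top and SerGGA and SerGCT at the right.

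The 3 leading families of sorghum together held 47.5% of its pool and 6.54% of that of maize. HisGTG, the sole histidine family and in plants a tRNA that bears an extra G at its 5′ end, was 17.8% in sorghum and 2.18% in maize, a log2 ratio of 3.03. It was the largest family in sorghum and rank 12 in maize. ThrTGT, the threonine tRNA that reads ACA and whose maize sequence resembled a plastid tRNA, was 16.8% in sorghum against 2.62% in maize (log2 ratio 2.67). AsnGTT, the sole asparagine family, was 13.0% in sorghum against 1.74% in maize (2.89). With serine left out and the columns rescaled, the log2 ratios of HisGTG, ThrTGT and AsnGTT were 2.13, 1.77 and 1.99, and relative to the median family they were 1.71, 1.35 and 1.57, so these families exceeded their maize shares beyond 2-fold on each of these scales.

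Several families higher in sorghum carried anticodons that begin with C. SerCGA, the serine tRNA for the codon UCG, was 5.58% in sorghum and 0.184% in maize, a log2 ratio of 4.85 and the largest ratio among families above 0 in both species that were higher in sorghum. LysCTT, the lysine tRNA for AAG, was 3.88% in sorghum against 0.218% in maize (4.09). ThrCGT was 1.93% against 0.285% (2.72), and GlyCCC was 1.06% in sorghum against 0.142% in maize (2.82). GluCTC was 6.89% in sorghum and 2.48% in maize (1.47), and GlnCTG was 1.29% against 0.427% (1.58). The last 2 passed 2-fold as deposited but not with serine left out, where their log2 ratios were 0.57 and 0.69.

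Further families past 2-fold that reached 1% were higher in sorghum. ArgACG, an arginine tRNA of the CGN codons, was 1.98% in sorghum and 0.419% in maize, and ArgTCT, an arginine tRNA for AGA, was 5.22% against 2.54%. ValTAC was 1.12% in sorghum against 0.0753% in maize, a log2 ratio of 3.72, and ValAAC was 2.79% against 0.904% (1.61). IleAAT, the main nuclear isoleucine tRNA of plants, was 2.41% in sorghum and 0.703% in maize (1.76), and GlyTCC was 1.42% against 0.536% (1.39). With serine left out, ArgTCT, ValAAC, IleAAT and GlyTCC had log2 ratios of 0.14, 0.72, 0.87 and 0.50 and were within 2-fold. ArgTCT had the ratio nearest to the limit as deposited, at 1.03, and relative to the median family its sign turned, at -0.29.

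The families lower in sorghum were led by 2 serine tRNAs. SerGGA, whose anticodon pairs with UCU and UCC, was 0.355% in sorghum and 25.8% in maize, a log2 ratio of -6.15. SerGCT, which reads AGU and AGC, was 2.71% in sorghum against 25.1% in maize (-3.21). Sorghum minus maize was -25.5 percentage points for SerGGA and -22.4 for SerGCT, and the excess of maize over all families lower in sorghum summed to 72.6 points. SerTGA and SerAGA, the remaining serine families, differed little, at 1.32% in sorghum against 1.41% in maize, and 0.177% against 0.184%. The 5 serine families thus moved in different directions, with 1 higher in sorghum, 2 lower and 2 within 2-fold.

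The other 6 families lower in sorghum on every scale belonged to 6 amino acids. GlnTTG, which reads CAA and CAG, was 0.203% in sorghum and 7.96% in maize, a log2 ratio of -5.23. AspGTC was 0.405% in sorghum against 7.42% in maize (-4.16). GluTTC, in the plastid also the tRNA whose glutamate starts chlorophyll and heme synthesis, was 0.101% in sorghum against 1.72% in maize (-3.95), and TyrGTA was 0.177% against 2.63% (-3.82). GlyGCC was 0.558% in sorghum and 2.82% in maize (-2.32), and MetCAT, the anticodon of initiator and elongator methionine tRNAs, was 0.938% against 3.29% (-1.80). IleCAT, an isoleucine tRNA of the plastid set with the same anticodon bases, has no row. The sources used here do not say whether it was counted under MetCAT.

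Several families were listed at 0 in 1 of the species, and no ratio is given for them. LeuTAA was 0.558% and ThrAGT 0.507% in sorghum, and both were listed at 0 in maize, as was AlaAGC at 0.0253% in sorghum. ProGGG at 0.419%, ThrGGT at 0.301% and ValGAC at 0.134% in maize were listed at 0 in sorghum. AlaTGC, LysTTT, CysACA and AspATC were listed at 0 in sorghum and stood between 0.00837% and 0.0251% in maize, which is less than the smallest value above 0 in sorghum. ProCGG and IleGAT were listed at 0 in both. The sources used here do not say whether the reference tRNAs of each species held these anticodons, and a listed 0 need not mean a lower abundance. ProGGG, CysACA and AspATC were above 0 in maize alone of the 7 species.

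The remaining 14 of the 52 families were within 2-fold. LeuCAA was the largest of them, at 2.61% in sorghum and 2.19% in maize (log2 ratio 0.25), but relative to the median family it was lower in sorghum, at -1.07. TrpCCA, the sole tryptophan family, was 0.735% in sorghum against 0.544% in maize, LeuTAG was 0.735% against 0.787%, and ProTGG was 0.583% in sorghum against 0.737% in maize. IleTAT stood at 0.152% in sorghum and 0.126% in maize. The families among the 10 largest of both species were 4, namely SerGCT, ThrTGT, ArgTCT and GluCTC.

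Summed per amino acid, threonine, histidine and asparagine tRNAs led in sorghum, and serine, glutamine and aspartate tRNAs in maize. Of the 20 amino acids, 14 (70%) differed by more than 2-fold, 9 (45%) higher in sorghum and 5 (25%) lower. Threonine held 19.2% in sorghum against 3.21% in maize, histidine 17.8% against 2.18%, asparagine 13.0% against 1.74%, and arginine 7.58% in sorghum against 3.10% in maize. Lysine had the largest log2 ratio, at 3.94, with 3.88% in sorghum and 0.243% in maize. Valine at 4.08% against 1.16% and isoleucine at 2.56% in sorghum against 0.829% in maize were also higher. Phenylalanine and alanine were above 2-fold too, but on small sums of 0.203% in sorghum against 0.0167% in maize and 0.228% against 0.0251%.

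Serine held 10.1% in sorghum and 52.7% in maize, a log2 ratio of -2.38. With the 5 leading families of the pair (HisGTG, ThrTGT, AsnGTT, SerGGA and SerGCT) left out, the serine sum turned to a log2 ratio of 1.83, and SerCGA made up most of what remained in sorghum. Aspartate was 0.405% in sorghum against 7.42% in maize (-4.16), tyrosine 0.177% against 2.63% (-3.82), glutamine 1.5% in sorghum against 8.39% in maize (-2.48) and methionine 0.938% against 3.29% (-1.80). Glutamate, leucine, cysteine, tryptophan, glycine and proline were within 2-fold. With serine left out, glycine (-1.10) and proline (-1.60) passed 2-fold as lower in sorghum, while arginine (0.39), isoleucine (0.72) and valine (0.92) came within it.

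**Figure D2:**
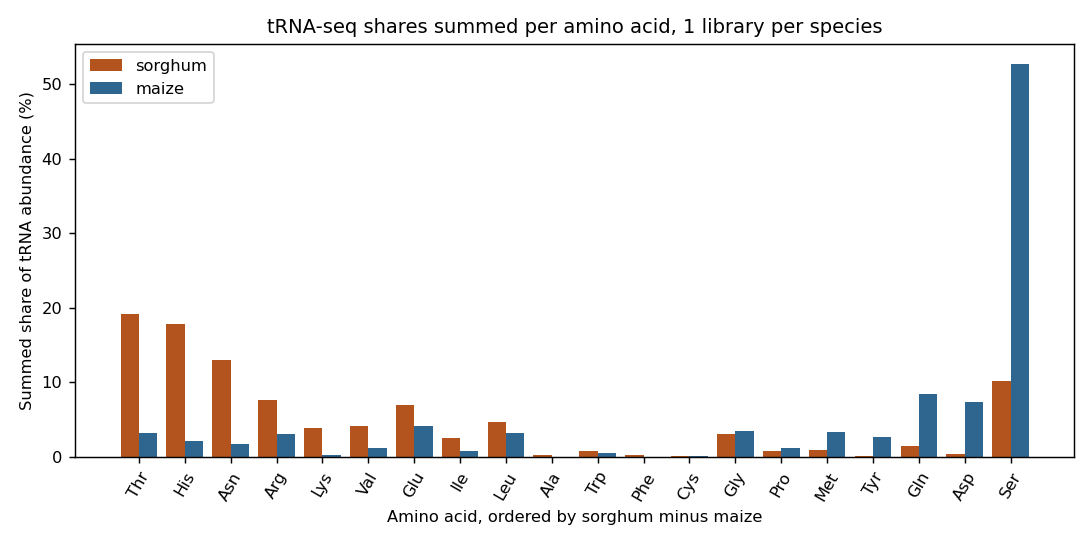
Summed share of tRNA abundance per amino acid in percent, with sorghum and maize bars side by side, 1 library each, ordered by sorghum minus maize. Threonine, histidine and asparagine stand at 19.2%, 17.8% and 13.0% in sorghum, and serine at 10.1% in sorghum and 52.7% in maize.

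The balance of isoacceptors within an amino acid does not move with the total of other amino acids, and it was compared for the 13 amino acids with several anticodons above 0 in either species and a sum of at least 0.1% in both. The leading isoacceptor was the same in 10 and another one in 3, namely glutamine, serine and glycine. GlnCTG made up 86.4% of glutamine tRNAs in sorghum and 5.09% in maize, where GlnTTG held 94.9%. SerCGA made up 55% of serine tRNAs in sorghum and 0.349% in maize, whereas SerGGA held 3.5% in sorghum and 49.0% in maize. GlyTCC led glycine in sorghum with 46.7%, against 15.3% in maize, and GlyGCC held 18.3% in sorghum and 80.6% in maize.

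Within-amino-acid shifts were given as the percentage points that would have to move to make both species alike. They were 81.4 for glutamine, 66.4 for serine and 62.3 for glycine, with a median of 21.5 over the 13. Glutamate shifted by 39.5 points around the same leader, GluCTC, which held 98.6% of glutamate tRNAs in sorghum and 59.1% in maize. Proline shifted by 33.6 points, which is the share of ProGGG in maize, a family listed at 0 in sorghum. ProTGG was at 76.7% in sorghum against 59.1% in maize. Threonine tRNAs, although far more abundant in sorghum, kept a like composition, with ThrTGT at 87.3% in sorghum and 81.7% in maize and a shift of 9.40 points. Isoleucine (9.21), lysine (10.3), arginine (14.2) and aspartate (0.113) shifted less than the median as well.

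**Figure D3:**
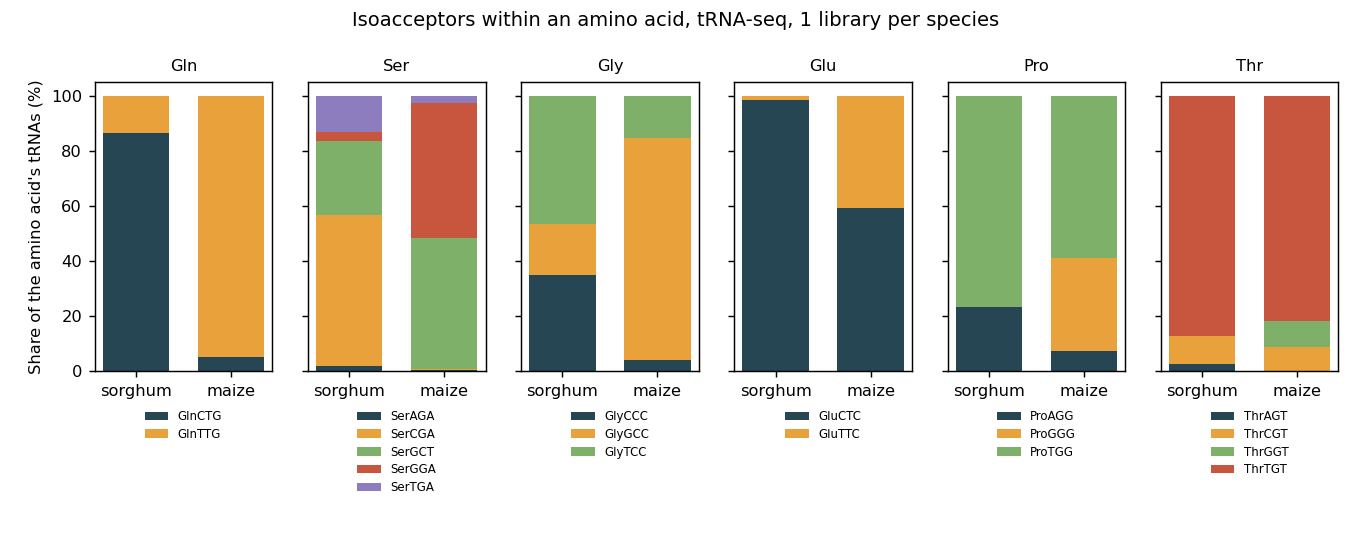
Share of each isoacceptor among the tRNAs of its amino acid in percent, for 6 amino acids in sorghum (left bar) and maize (right bar), 1 library each. GlnCTG fills 86.4% of the sorghum glutamine bar and 5.09% of the maize one, while ThrTGT fills 87.3% and 81.7% of the threonine bars.

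Anticodons that occur in the standard plastid set of land plants held less of the sorghum pool than of the maize pool, but within 2-fold. Their 28 families summed to 69.6% in sorghum and 93.2% in maize, a log2 ratio of -0.42 that was -0.22 with serine left out. Of the 28, 9 were higher in sorghum, 12 lower and 7 within 2-fold, with a median log2 ratio of -0.10. The 24 families with any other anticodon summed to 28.4% in sorghum and 6.66% in maize, with 15 higher, 2 lower and 7 within 2-fold and a median of 1.56. Over all 52 families, 46.2% were higher and 26.9% lower, and the median was 0.61. Foxtail millet, barley and wheat had 20.9%, 43.6% and 37.9% in the other anticodons, A. thaliana 29.2% and soybean 37.8%, so that the maize sum was the smallest of the 7 species and the sorghum sum lay among the rest. With serine left out, the log2 ratio of the summed shares of these families was 0.95, just under 2-fold, against 2.09 with serine. Many plastid anticodons also occur in nuclear tRNAs, so the list divides anticodons and not compartments.

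Grouped by the first anticodon base, which pairs with the third base of the codon, families beginning with G held 35.4% in sorghum and 68.7% in maize. Of these 13 families, 3 were higher in sorghum and 8 lower, with a median log2 ratio of -3.21 beside 0.61 over all 52, where 46.2% were higher and 26.9% lower. Families beginning with C held 26.2% in sorghum against 10.1% in maize, with 10 of 15 higher and 1 lower and a median of 1.58. Those beginning with A held 8.31% in sorghum against 2.44% in maize, with 6 of 10 higher, 1 lower and a median of 1.43. Families beginning with T held 28.2% in sorghum against 18.6% in maize, with 5 of 14 higher, 4 lower and a median of -0.10. These sums depended on serine. Without serine, the log2 ratio of the sums was -0.037 for G (-0.96 with serine), 0.16 for C (1.38), 0.95 for A (1.77) and -0.26 for T (0.60), so that no first base passed 2-fold and the sign turned for T.

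By chemical class, tRNAs for basic residues (Arg, His and Lys) summed to 29.3% in sorghum and 5.52% in maize, with 5 of 8 families higher and 1 lower, and aliphatic residues (Ala, Ile, Leu and Val) to 11.6% against 5.27%, with 9 of 15 higher and 2 lower, beside 46.2% higher and 26.9% lower over all families. Once serine was left out, the log2 ratio of the basic sum was 1.51 (2.41 with serine), and that of the aliphatic sum 0.23 (1.13), which is within 2-fold. Amide residues (Asn and Gln) were 14.5% in sorghum and 10.1% in maize, where higher AsnGTT and lower GlnTTG offset each other. Their log2 ratio of 0.51 turned to -0.39 with serine left out. Acidic residues (Asp and Glu) were 7.40% in sorghum against 11.6% in maize, with 1 of 4 families higher and 2 lower, a log2 ratio of -0.65 that was -1.55 with serine left out. Aromatic residues were 1.12% in sorghum against 3.19% in maize, with 1 of 3 families higher (PheGAA), 1 lower (TyrGTA) and 1 within 2-fold. Cys and Met together were 1.09% in sorghum against 3.40% in maize, mostly MetCAT in both. Of these 3 families 2 were lower, MetCAT and CysACA, and CysACA lay under the smallest sorghum value above 0. Serine and threonine, which bear hydroxyl groups, summed to 29.3% in sorghum against 55.9% in maize, with 4 of 9 families higher and 3 lower, a log2 ratio of -0.93. Threonine alone, with serine left out, had a log2 ratio of 1.68. Leucine and serine, whose nuclear tRNAs have a long variable arm, summed to 14.9% in sorghum and 56.0% in maize, with 4 of 10 higher and 2 lower, and a log2 ratio of -1.91 that was -0.37 for leucine alone. By G and C content of the anticodon, families with 0, 1, 2 and 3 such bases held 3.12%, 49.9%, 42.8% and 2.15% in sorghum, against 0.854%, 28.4%, 67.1% and 3.47% in maize. Without the serine families, the log2 ratio for 0 such bases was 0.96 (1.86 with serine) and that for 3 was -1.59 (-0.69). For 1 and 2 such bases it was -0.048 (0.81) and 0.20 (-0.65), so that both signs turned.

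The 2 species were set beside the libraries of foxtail millet, barley and wheat, by shares as deposited and with 1 library per species. In maize, SerGGA and SerGCT took 51.0%, which left 48.8% to the other families. The places given here and in the next paragraph were not computed with serine left out. Sorghum lay above the range of these 3 grasses in 16 families, below it in 10 and within it in 26, and maize lay above it in 12, below it in 19 and within it in 21. By more than 2-fold, sorghum lay above the range in 5 families and below it in 6, and maize above it in 4 and below it in 13. HisGTG at 17.8% in sorghum and 2.18% in maize was above the other grasses in both, which had 1.18% (foxtail millet), 0.355% (barley) and 0.116% (wheat). AsnGTT at 13.0% in sorghum stood apart from 0.725% to 2.38% in these grasses, while maize at 1.74% lay among them. ThrTGT was above their range of 3.08% to 9.50% in sorghum and below it in maize, at 16.8% and 2.62%, and SerCGA likewise, at 5.58% in sorghum and 0.184% in maize beside 0.448% to 2.50%. LysCTT in maize was below the other grasses, at 0.218%, whereas sorghum at 3.88% was above but near their 2.62% to 3.23%.

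Among the families lower in sorghum, SerGGA was 0.355% in sorghum, against 25.8% in maize, and it was 21.4% in foxtail millet and listed at 0 in barley and wheat. SerGCT was 2.71% in sorghum, within the 2.08% to 16.9% of the other grasses, and above them in maize, at 25.1%. GlnTTG at 0.203% and AspGTC at 0.405% in sorghum lay below every other grass, where the families held 1.94% to 9.30% and 1.30% to 8.04%, while maize lay within these ranges. GlyGCC and MetCAT in sorghum were also below all of them. GluTTC was 0.101% in sorghum and 1.72% in maize, beside 11.0% in foxtail millet, 0.149% in barley and 0.159% in wheat. Of the 23 families past 2-fold that reached 1%, 15 were higher in sorghum, and for 11 of these the median of the 3 grasses was nearer to sorghum and for 4 nearer to maize, while foxtail millet alone was nearer to sorghum in 8 and to maize in 7. The other 8 were lower in sorghum. Among these, the median of the 3 grasses was nearer to sorghum in 4 and to maize in 4, while foxtail millet was nearer to sorghum in 1 and to maize in 7.

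**Figure D4:**
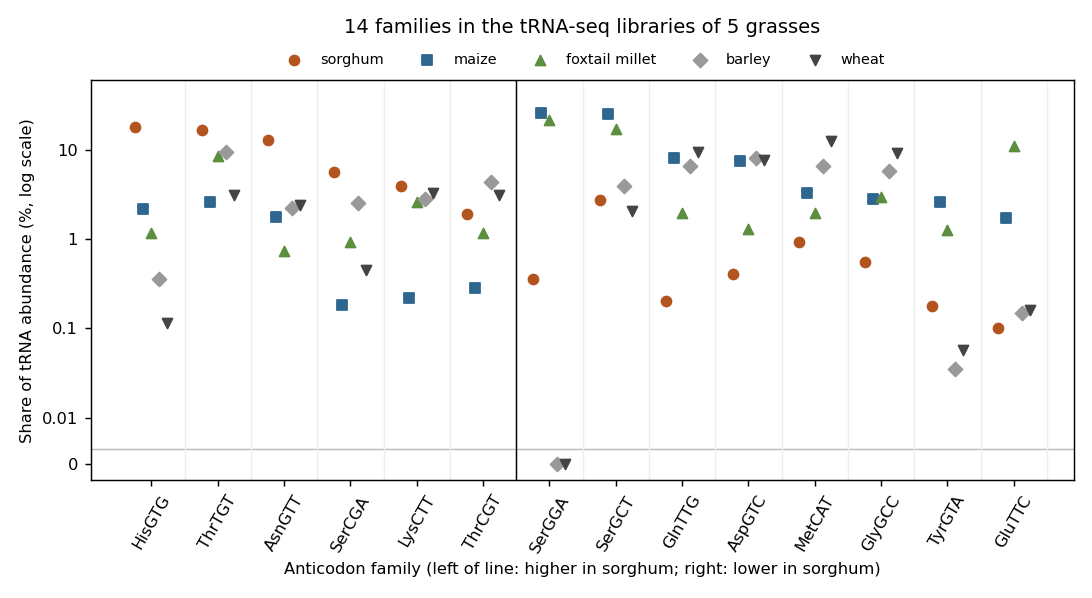
Share of tRNA abundance in percent on a log axis for 14 families in 5 grasses with 1 library each. Their 2-fold difference held on every scale that retained them, and values listed at 0 are drawn below the grey line. Sorghum circles lie above all other grasses for HisGTG, ThrTGT, AsnGTT, SerCGA and LysCTT, and below all of them for GlnTTG, AspGTC, MetCAT, GlyGCC and GluTTC.

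Over the whole pool, sorghum and maize had a Bray-Curtis dissimilarity of 0.726, where 0 means the same shares and 1 no overlap. This was the highest of the 21 pairs of species on all rows, but it ranked 15 of 21 from the most alike, at 0.580, with serine left out, and 18 of 21, at 0.597, with the 5 leading families left out. Maize and foxtail millet stood at 0.333, next to barley and wheat, the most alike pair, at 0.296, and sorghum stood at 0.600 from foxtail millet and nearest to barley, at 0.514. The 38 families past 2-fold were also the most of any pair, which ranged from 15 between barley and wheat, and the median was 32. Spearman's rho across the 40 families above 0 in both was 0.436, rank 17 of 21 from the highest. The pairs share libraries, families are not replicates, and these values describe the libraries only.

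With all families kept, the sorghum pool was spread over more families than that of maize, but with serine left out the order turned. With all families, it took 4 families in sorghum and 2 in maize to reach 50% of the library, and 19 in sorghum and 14 in maize to reach 90%. The effective number of families, which equals the count of families if all had equal shares, was 16.3 in sorghum and 12.0 in maize, the smallest of the 7 species. Without serine, 50% was reached by 3 families in sorghum and 5 in maize and 90% by 15 in sorghum and 16 in maize, and the effective number was 13.6 in sorghum and 17.4 in maize. With the 5 leading families left out, it was 19.7 in sorghum and 15.9 in maize.

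**Figure D5:**
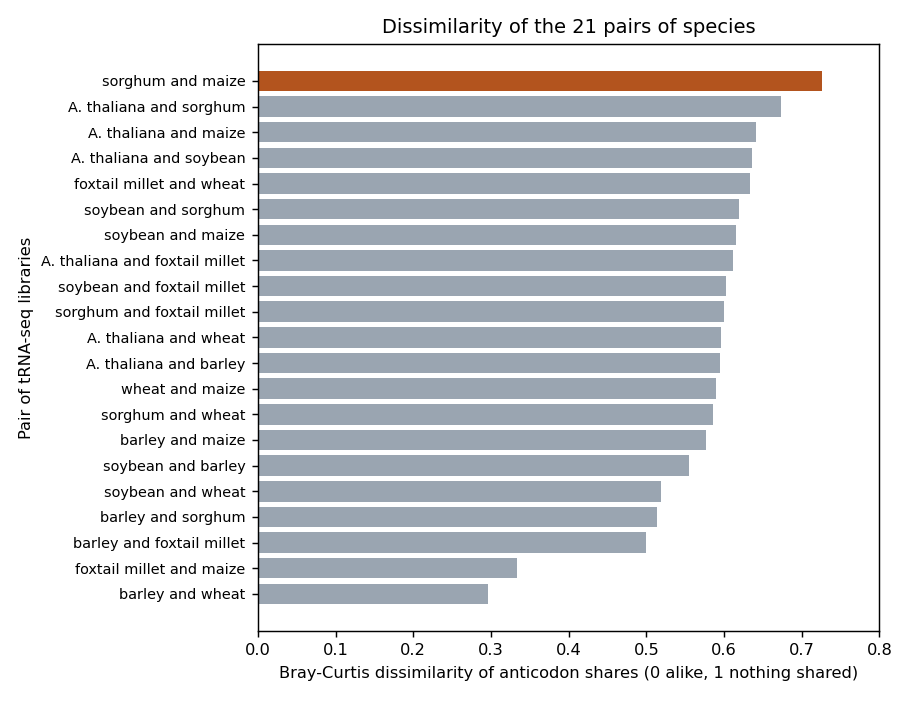
Bray-Curtis dissimilarity of the anticodon shares for the 21 pairs of species in tRNA-seq, all rows included, with sorghum and maize in colour. Sorghum and maize reach 0.726, while barley and wheat reach 0.296.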

How the data were processed

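The tRNA-seq values were deposited by the authors as 52 rows, each a percent of total tRNA abundance, per the file headers. RNA was extracted with TRIzol, pretreated with a kit for tRNA fragments and made into a small RNA library, per the labels' protocols. Cutadapt and the A. thaliana build TAIR10 are named per the submitters' processing notes, also for sorghum and maize. The sources used here do not give the aligner, reference tRNAs, filters or handling of reads that match several tRNAs. Base modifications that stop reverse transcription, and ligation and amplification, can change a tRNA's share.

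The deposited YAMAT-seq files list a read count for each tRNA sequence, per the file headers, with 19833183 reads over 72 sequences in maize. They were used to show sequences, and no count model was fitted. The anticodon was read as the middle of a 7-base loop closed by the best stem of 5 pairs. This gave the listed name in 141 of 143 A. thaliana sequences, the other 2 being named IleCAT. It left 4 maize sequences (9 reads) without an anticodon. Edit distances were computed with edlib 1.3.9.post1, and 136 A. thaliana sequences had an exact place in TAIR10.1 after removal of CCA.

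Log2 ratios were of percent + 0.01 in sorghum over maize. The leaf and root columns of A. thaliana hold the same values and were counted once. Ratios, dissimilarities and the anticodon rule were tested on simulated data (Python 3.11.15, numpy 2.4.6, pandas 2.3.3, scipy 1.17.1). Families were named if among the 10 largest of either species, past 2-fold with a larger share of at least 1%, or listed at 0 in 1 species and at 0.1% or more in the other, which gave 29. Other families are named beside counts or for context, after their values were seen. The members and lists were chosen with earlier results of these data known. The list of not standard tRNAs found 0 rows. The plastid list had 29 anticodons, of which 28 were in the table, and IleCAT was not. Alternatives were other pseudocounts, filters, scalings, limits of fold and ranges.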

Additional observations from a re-analysis of the deposited data

How the results depend on the processing

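No paired analysis was possible because each species has 1 library and no result comes from a test, and no library could be left out. Of the 24 families higher and 14 lower in sorghum past 2-fold, 9 and 8 were called with a pseudocount of 1, 15 higher with serine left out, 12 and 24 relative to the median family and 13 higher past 4-fold, and 8 lower over rows above 0 in both. The 24 lower relative to the median family include ProCGG and IleGAT, listed at 0 in both species. Counts with pseudocounts of 0.001 and 0.1, with rescaled columns and over rows with a mean of at least 0.1% stayed within 1.5 times, as did all counts of amino acids. Relative to the median family the log2 ratio of LeuCAA was -1.07, of ArgTCT -0.29 and of the arginine sum -0.033, and with the 5 leading families left out, an alternative chosen after seeing the data, that of the serine sum was 1.83. The cause was not tested.

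The number of families for 50% of the pool was 3 in sorghum and 5 in maize with serine left out, where the effective number also turned, to 13.6 in sorghum against 17.4 in maize, and 5 in sorghum and 4 in maize with the 5 leading families left out. Outside the range of the other grasses by more than 2-fold were 5 families above and 6 below in sorghum, and 4 above and 13 below in maize. With soybean and A. thaliana in the range, sorghum was below it in 6 families, and maize above it in 6 and below it in 7. Of the list sums, with serine left out, the log2 ratio was 1.68 for hydroxyl residues, -1.55 for acidic residues, 0.23 for aliphatic residues, -1.10 for glycine, -1.60 for proline, -0.37 for leucine and serine, 0.95 for first base A, 0.16 for first base C, -0.037 for first base G, -0.26 for first base T, 0.96 for 0 and -1.59 for 3 G or C bases, and 0.95 for anticodons outside the plastid set. The sign turned, with serine left out, for 1 (-0.048) and 2 (0.20) G or C bases and for amide residues (-0.39). The depth of tRNA-seq is unknown, and differences in maize shares under the smallest sorghum value of 0.0253% are not resolved by the sorghum grid. The sorghum shares of GluTTC (0.101%), TyrGTA (0.177%) and GlnTTG (0.203%) also lie only a few steps of this grid above 0, so the size of their ratios is coarse.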
